A study of Mus musculus with 12 samples.

Results

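The genes described here are 38 genes of glucose metabolism: the transporters and enzymes of glycolysis, the steps that follow pyruvate, and the pentose phosphate pathway. They were taken by symbol for their place in these pathways, with earlier results of these data known when the list was chosen. Each was read from the probe set with the highest mean over all arrays. Of the 38 genes, 34 were measured, among 19938 genes that had a probe set of their own. Gpi1, Eno1 and G6pdx were not listed in the platform annotation used here, and Gapdh was listed only on 25 rows that each carried several symbols, so these 4 genes were not analysed here.

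The cells were cumulus cells of the mouse, which derive from granulosa cells and enclose the oocyte, measured on 12 whole-transcript arrays in 3 groups of 4. Complexes of cumulus cells and oocyte came from female 129SV mice aged 21 to 26 days that had received 5 IU equine chorionic gonadotropin 44 h earlier, and collection medium held the phosphodiesterase inhibitor cilostamide at 1 µM. All groups were cultured for 8 h, 20 complexes to a drop of 50 µl, in medium with 11 mM glucose and 100 µM cysteamine. The FSH/EGF group received 50 mIU/ml follicle-stimulating hormone and 10 ng/ml epidermal growth factor, with 293H control medium at 0.125% by volume. The GDF9 group received 20 ng/ml growth differentiation factor 9, an oocyte-secreted factor of the TGF-beta family, and the labels name no control medium for it. The control group received 293H control medium alone at 0.125% by volume. Oocytes stayed in the complexes during culture in all 3 groups, so every group was also exposed to what its oocytes secreted. They were removed before RNA was taken from the cumulus cells, and RNA of 2 biological replicates was pooled for each array.

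Glycolysis splits glucose into pyruvate, which is either reduced to lactate or carried into mitochondria and oxidised through pyruvate dehydrogenase. The pentose phosphate pathway branches off after the first phosphorylation and yields NADPH and ribose. In the follicle the oocyte takes up little glucose of its own and relies on pyruvate that cumulus cells make from glucose and hand over, and cumulus cells stimulated before ovulation also spend glucose on the hyaluronan matrix in which they expand.

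Values are the deposited log2 signals, so that a difference of 1 is a 2-fold change. Array medians ran from 5.41 to 5.53. Arrays hold no reads to count, so precision is set by how many arrays there are. Groups were compared with limma over all 35399 rows, a difference is given with its standard error (SE, 4 arrays per group), and a gene is said to have risen or fallen where its Benjamini-Hochberg adjusted p was under 0.05. The array of control 4 stood apart in oocyte transcripts: the median of 20 measured oocyte markers was 4.63 to 4.96 with FSH/EGF, 4.63 to 4.83 with GDF9, 4.72 to 4.87 on the other control arrays and 5.80 on control 4. Control 1 had the lowest weight of all arrays in a fit with array weights, 0.269. The granulosa and cumulus marker list, of which 13 of 14 genes were measured, had array medians of 7.81 to 8.28 with FSH/EGF, 8.85 to 9.19 with GDF9 and 8.93 to 9.18 in control, so the labelled cell type had its markers in every group. With FSH/EGF 8 of these 13 markers fell and 1 rose against control, where 14.9% of all genes fell and 21.9% rose. Theca and stroma markers had medians of 5.17 to 5.37 with FSH/EGF, 5.42 to 5.56 with GDF9 and 5.38 to 5.53 in control, and with FSH/EGF 4 of 10 fell and 1 rose. Both measured red blood cell markers fell. Of 8 endothelial markers 2 rose, of 7 leukocyte markers 1 rose, and of 7 markers of the ovarian surface epithelium 2 rose and 1 fell. The part of these markers in the results below was not tested. In bulk RNA of this kind, fewer cells of a type and less RNA per cell cannot be told apart.

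With FSH/EGF, 15 of the 34 genes rose, 5 fell and 14 passed in neither direction against control. Rises made up 75.0% of these calls, and 61.9% after renewed quantile normalization, with 13 genes up and 8 down. Over all rows, rises made up 57.0% of the calls, and 52.4% after renewed quantile normalization. Those that rose included the glucose transporter Slc2a1, hexokinase Hk2, pyruvate kinase Pkm, lactate dehydrogenase Ldha, the lactate exporter Slc16a3 and the pentose phosphate enzymes Pgd and Taldo1. Those that fell were fructose bisphosphatase Fbp1, lactate dehydrogenase Ldhb, the pyruvate dehydrogenase kinase Pdk1, the monocarboxylate transporter Slc16a1 and phosphogluconolactonase Pgls. With GDF9 none of the 34 passed the threshold in either direction. The share that rose with FSH/EGF was 44.1%, against 21.9% of all genes, and the share that fell was 14.7%, against 14.9% of all genes. Of the 34 genes, 30 lay above the median gene in mean level over all 12 arrays. Of these 30, 46.7% rose, against 37.8% of all genes above that median. Among the same brighter genes 16.7% fell, against 17.1% of all brighter genes. In that mean the FSH/EGF arrays count too, so a rise with FSH/EGF can itself bring a gene into the brighter set. These shares are therefore not matched for level independently of the treatment. Pfkfb4, at 6.44 with FSH/EGF, had means of 5.43 in control and 5.48 with GDF9, under the median genes there of 5.79 and 5.74. Arrays of FSH/EGF and of control did not overlap for 19 of the 34 genes, or 55.9%, as for 41.9% of all genes. The median difference over the 34 genes was 0.13, against -0.07 over all genes. At least 2-fold changes past the threshold were found in 6 genes that were higher, Slc2a1, Hk2, Pfkfb4, Pkm, Pgd and Taldo1, and in 1 that was lower, Fbp1. Over all genes 5.14% were higher and 2.23% lower by that measure.

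**Figure D1:**
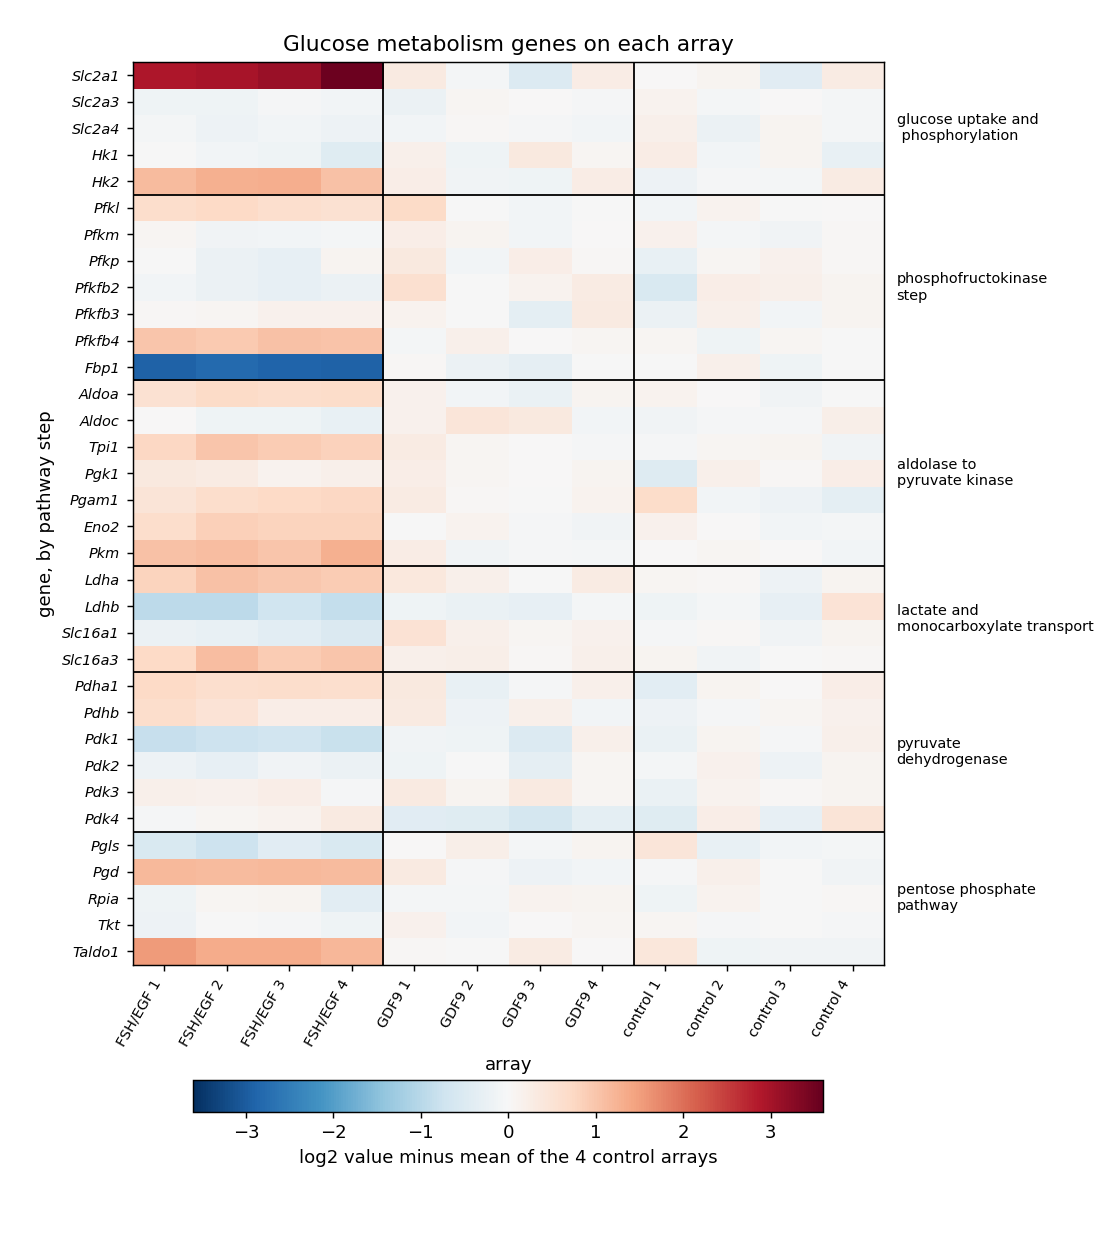
Each cell is the log2 value of 1 gene on 1 array minus the mean of the 4 control arrays for that gene, for the 34 measured genes in pathway order (rows) and the 12 arrays (columns, FSH/EGF, then GDF9, then control). The FSH/EGF columns of Slc2a1 and Fbp1 hold the strongest colours, in opposite directions, and the GDF9 columns stay near the control columns.

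The promoters of the genes with the largest rise and the largest fall with FSH/EGF, Slc2a1 and Fbp1, are shown as the 250 bases before the RefSeq gene start (build GRCm38.p6, read in the direction of transcription). The Ldha promoter is added because it held matches to all 4 motifs searched, and it was chosen after its values were seen. Capitals mark any match to ACGTG (the core of the hypoxia response element), TGACGTCA (the cAMP response element), its shorter part TGACG, or the E-box CACGTG, which itself holds ACGTG, on either strand.
Slc2a1, chr4:119108495-119108744, plus strand: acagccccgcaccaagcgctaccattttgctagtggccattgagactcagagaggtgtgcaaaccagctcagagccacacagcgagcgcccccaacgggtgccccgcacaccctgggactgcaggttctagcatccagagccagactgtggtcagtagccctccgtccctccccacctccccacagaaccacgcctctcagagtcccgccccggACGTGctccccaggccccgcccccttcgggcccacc
Fbp1, chr13:62888283-62888532, minus strand: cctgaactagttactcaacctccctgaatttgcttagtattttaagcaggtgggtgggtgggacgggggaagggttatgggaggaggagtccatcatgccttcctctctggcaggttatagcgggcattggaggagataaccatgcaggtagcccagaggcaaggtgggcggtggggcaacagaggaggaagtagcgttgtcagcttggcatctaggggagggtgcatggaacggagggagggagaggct
Ldha, chr7:46845554-46845803, plus strand: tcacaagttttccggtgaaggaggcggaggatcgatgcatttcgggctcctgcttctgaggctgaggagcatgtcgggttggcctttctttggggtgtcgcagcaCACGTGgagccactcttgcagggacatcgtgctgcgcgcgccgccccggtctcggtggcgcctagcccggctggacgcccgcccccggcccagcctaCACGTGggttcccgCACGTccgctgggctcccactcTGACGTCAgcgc
The Slc2a1 window held 1 match, to the hypoxia core, and the Fbp1 window held none. The Ldha window held the E-box and the full cAMP response element, each with its shorter part, and also the hypoxia core outside any E-box. Promoters were found in the RefSeq table for 32 of the 34 genes, all but Slc2a3 and Slc2a4. ACGTG stood within 250 bases before a start of 15 of these 32 genes, or 46.9%, against 18.5% of 26994 genes in the table. It was found in 8 of the 15 genes that rose, 1 of the 5 that fell and 6 of the 12 that passed in neither direction. The promoters of the pathway genes were also richer in G and C, with a median of 60.4% against 52.4% over all promoters. The full TGACGTCA was in 1 of 32 genes, or 3.12%, against 1.77% of all genes, and the gene that held it, Ldha, rose. TGACG was in 8 of 32, or 25.0%, against 19.8%, and of these 6 were among the 15 that rose, 0 among the 5 that fell and 2 among the other 12. CACGTG was in 6 of 32, or 18.8%, against 6.86%, and of these 1 was among the 15 that rose, 1 among the 5 that fell and 4 among the other 12. These matches describe letters, not bound sites, and no test was made on them.

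Slc2a1 encodes GLUT1, the transporter that lets glucose into most cells at rest. Its level was 10.53, 10.61, 10.74 and 11.17 on the FSH/EGF arrays, 7.95, 7.56, 7.14 and 7.89 on the GDF9 arrays and 7.66, 7.72, 7.23 and 7.92 on the control arrays. All 4 FSH/EGF arrays lay above every other array, and the GDF9 and control arrays overlapped. The difference between FSH/EGF and control was 3.13 ± 0.20, or 8.76-fold (limma, adjusted p = 1.41e-07), and between GDF9 and control 0.01 ± 0.20. Slc2a3 encodes a neuronal glucose transporter and Slc2a4 the insulin-responsive transporter GLUT4. Neither passed with FSH/EGF, with differences of -0.12 ± 0.08 for Slc2a3 (adjusted p = 0.27) and -0.13 ± 0.09 for Slc2a4 (adjusted p = 0.272).

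Hexokinases trap glucose in the cell by phosphorylating it, and Hk2 is the inducible form of muscle and fat. Hk2 was at 7.25, 7.39, 7.41 and 7.16 with FSH/EGF, 5.96 to 6.38 on the 4 arrays with GDF9 and 5.93, 6.06, 6.05 and 6.40 in control. Its FSH/EGF arrays were again all above the others, and the difference from control was 1.19 ± 0.12, or 2.29-fold (limma, adjusted p = 1.09e-05). Hk1, the hexokinase found in most tissues, had a pair of probe sets that did not give the same answer. The brighter set averaged 10.28 with FSH/EGF, 10.57 with GDF9 and 10.46 in control, and its difference of -0.18 ± 0.14 from control did not pass (adjusted p = 0.34). The dimmer set lay at 7.43 to 7.61 with FSH/EGF, 5.80 to 6.28 with GDF9 and 5.86 to 6.15 in control, and it was 1.57 ± 0.10 higher than control (limma, adjusted p = 2.08e-07). Only the dimmer set is annotated with a RefSeq mRNA accession, and the direction of Hk1 therefore depends on the set used.

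**Figure D2:**
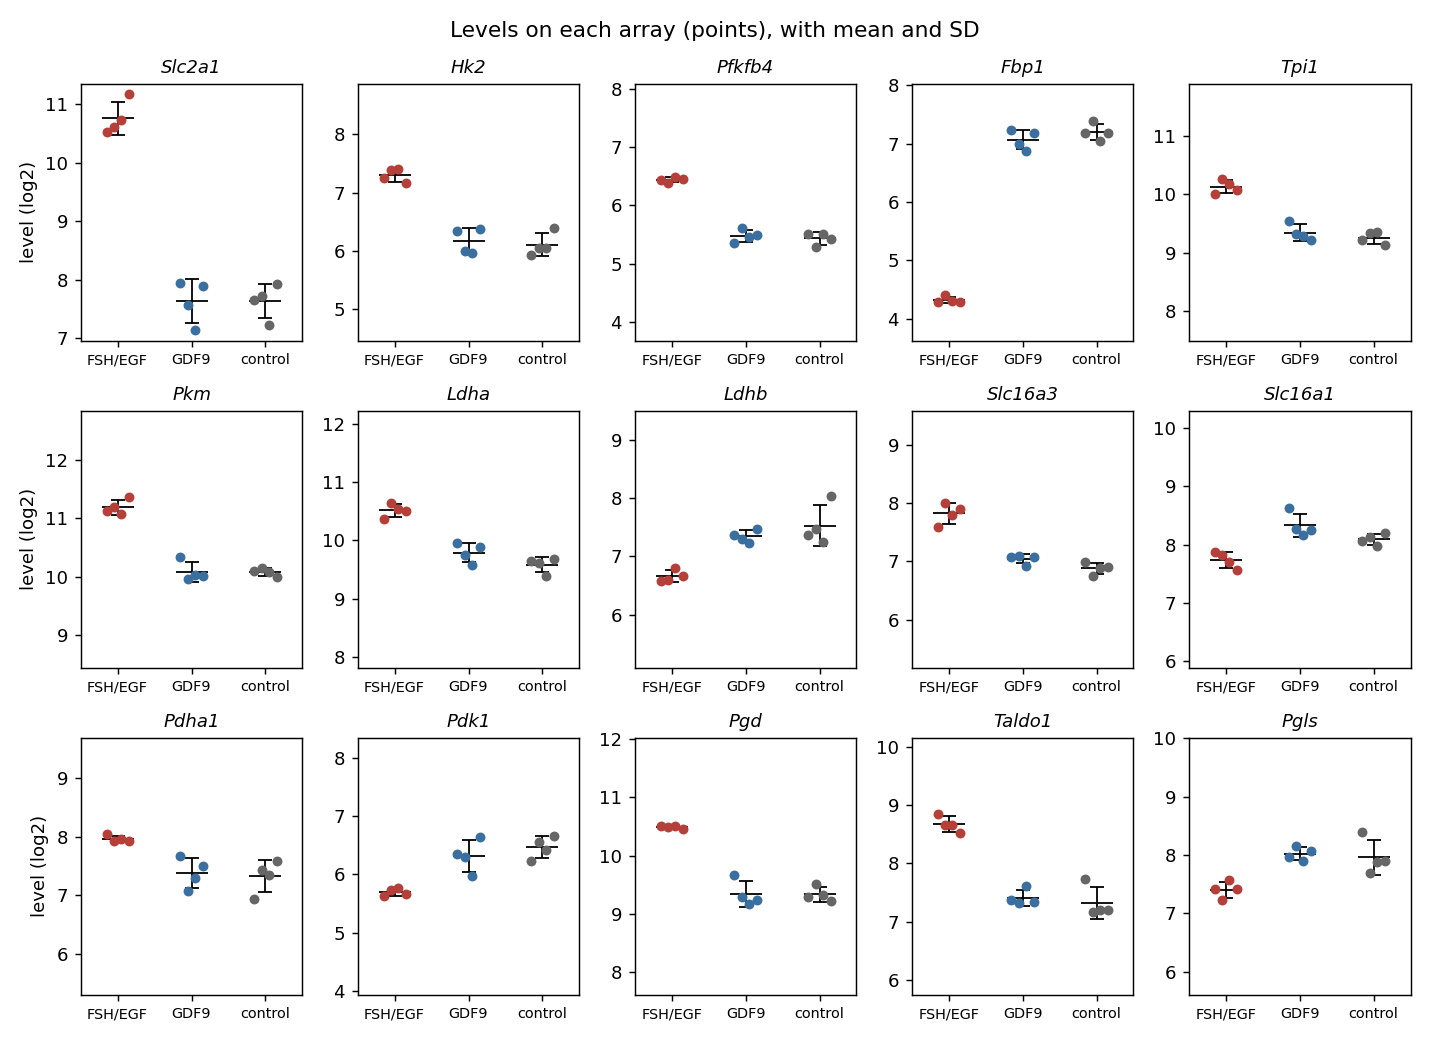
Points are the log2 levels on single arrays for 15 genes, with the mean and SD of the 4 arrays of FSH/EGF (red, left), GDF9 (blue, middle) and control (grey, right); each panel has its own offset and the same span. For Slc2a1 the FSH/EGF points lie between 10.53 and 11.17, and for Fbp1 between 4.29 and 4.41, apart from both other groups.

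At the phosphofructokinase step, the committed step of glycolysis, 2 of 7 genes rose and 1 fell with FSH/EGF. Pfkl, the liver-type phosphofructokinase, was at 8.03, 8.11, 8.00 and 7.94 with FSH/EGF, 8.08, 7.39, 7.29 and 7.38 with GDF9 and 7.30, 7.52, 7.37 and 7.40 in control. All FSH/EGF arrays were above control, while GDF9 array 1 was as high as they were. The difference from control was 0.62 ± 0.14 (limma, adjusted p = 0.00584), and without control 1, control 4 and FSH/EGF 3 together it was 0.58 with an adjusted p of 0.0804. Pfkm and Pfkp, the muscle and platelet types, did not pass, with differences of -0.06 ± 0.09 and -0.10 ± 0.12. After renewed quantile normalization Pfkp was 0.33 lower (-0.33, adjusted p = 0.0443).

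The Pfkfb enzymes make and break down the sugar bisphosphate that activates phosphofructokinase and restrains fructose bisphosphatase. Pfkfb4 was at 6.44, 6.38, 6.48 and 6.46 with FSH/EGF, 5.36, 5.61, 5.45 and 5.49 with GDF9 and 5.51, 5.28, 5.51 and 5.42 in control. The FSH/EGF values did not overlap with the others, and the difference from control was 1.01 ± 0.07, or 2.01-fold (limma, adjusted p = 5.33e-07). Pfkfb3 differed by 0.10 ± 0.13 and did not pass (adjusted p = 0.566). Pfkfb2 had means of 6.52 with FSH/EGF, 6.97 with GDF9 and 6.73 in control, and a difference from control of -0.21 ± 0.17 (adjusted p = 0.384). Control 1 was its lowest array, at 6.17, and without that array the difference was -0.39 (limma, adjusted p = 0.0307). With array weights it was -0.36 (adjusted p = 0.0224).

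Fbp1, fructose bisphosphatase, works against phosphofructokinase in the direction of glucose synthesis, and it had the largest fall of the 34 genes. It lay at 4.29, 4.41, 4.31 and 4.29 with FSH/EGF, 7.23, 7.00, 6.87 and 7.17 with GDF9 and 7.18, 7.39, 7.04 and 7.18 in control. The FSH/EGF arrays were all more than 2 units below both other groups, and the difference from control was -2.88 ± 0.09, or 7.34-fold lower (limma, adjusted p = 4.03e-10). In the FSH/EGF group only 13.3% of genes had a lower mean than Fbp1. Array background was not analysed here, so the size of this fall is approximate.

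Of the 7 genes from aldolase to pyruvate kinase, 5 rose with FSH/EGF, or 71.4%, and none fell, against 21.9% and 14.9% of all genes. Of all genes above the median gene in mean level, 37.8% rose. Aldoa, the main aldolase, which splits the sugar into 2 trioses, was at 11.83, 11.96, 11.91 and 11.94 with FSH/EGF, 11.43, 11.18, 11.03 and 11.38 with GDF9 and 11.40, 11.28, 11.15 and 11.27 in control. Tpi1, which interconverts the trioses, was at 10.01, 10.27, 10.19 and 10.08 with FSH/EGF, 9.55, 9.32, 9.28 and 9.22 with GDF9 and 9.22, 9.34, 9.36 and 9.12 in control. For both genes every FSH/EGF array lay above every other array. Aldoa was 0.64 ± 0.09 higher than control, or 1.56-fold (limma, adjusted p = 0.000195), and Tpi1 0.88 ± 0.09, or 1.83-fold (adjusted p = 1.09e-05). Aldoc, the brain-type aldolase, differed by -0.14 ± 0.12 and did not pass (adjusted p = 0.393).

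Pgk1, phosphoglycerate kinase, makes the first ATP of the pathway. Its means were 9.95 with FSH/EGF, 9.81 with GDF9 and 9.71 in control, and the difference from control of 0.24 ± 0.13 did not pass (adjusted p = 0.2). Control 1 was low for this gene, at 9.23 against 9.74 to 9.95 on the other controls, and without that array the difference was 0.08 (adjusted p = 0.507). Pgam1, phosphoglycerate mutase, was at 9.88, 10.06, 10.12 and 10.15 with FSH/EGF, 9.70, 9.45, 9.41 and 9.54 with GDF9 and 10.06, 9.31, 9.22 and 9.07 in control. Control 1 was high here and overlapped with the FSH/EGF arrays, while the other controls lay below. Pgam1 rose by 0.64 ± 0.17 (limma, adjusted p = 0.0154), and after renewed quantile normalization the difference was 0.46 with an adjusted p of 0.0922. Its other probe sets gave a rise of 0.66 ± 0.13 (adjusted p = 0.00188), with no overlap between FSH/EGF and control. Pgk1 and Pgam1 each had 3 probe sets. For Pgk1 2 of them held identical values, and for Pgam1 2 of them gave the same difference to 2 decimals, so transcripts of near-identical copies of these genes could not be told apart here.

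Eno2, the neuron-type enolase, was at 5.63, 5.85, 5.80 and 5.80 with FSH/EGF, 4.98, 5.13, 4.96 and 4.88 with GDF9 and 5.15, 5.01, 4.89 and 4.94 in control. Pkm, pyruvate kinase, which closes glycolysis by making pyruvate, was at 11.13, 11.20, 11.08 and 11.37 with FSH/EGF, 10.34, 9.97, 10.04 and 10.01 with GDF9 and 10.10, 10.15, 10.09 and 10.00 in control. Neither gene had an FSH/EGF array within the range of the other groups. Eno2 rose by 0.77 ± 0.08 against control (limma, adjusted p = 1.29e-05) and Pkm by 1.11 ± 0.09, or 2.16-fold (adjusted p = 1.55e-06). In the control group 28.5% of genes had a lower mean than Eno2, and array background was not analysed here, so the size of its rise is approximate. The Pkm probe set that is annotated with a RefSeq mRNA accession is the dimmer of a pair, and it gave 1.46 ± 0.11 (adjusted p = 6.76e-07). The arrays were not read here by exon, so the forms of Pkm that differ in splicing were not told apart.

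**Figure D3:**
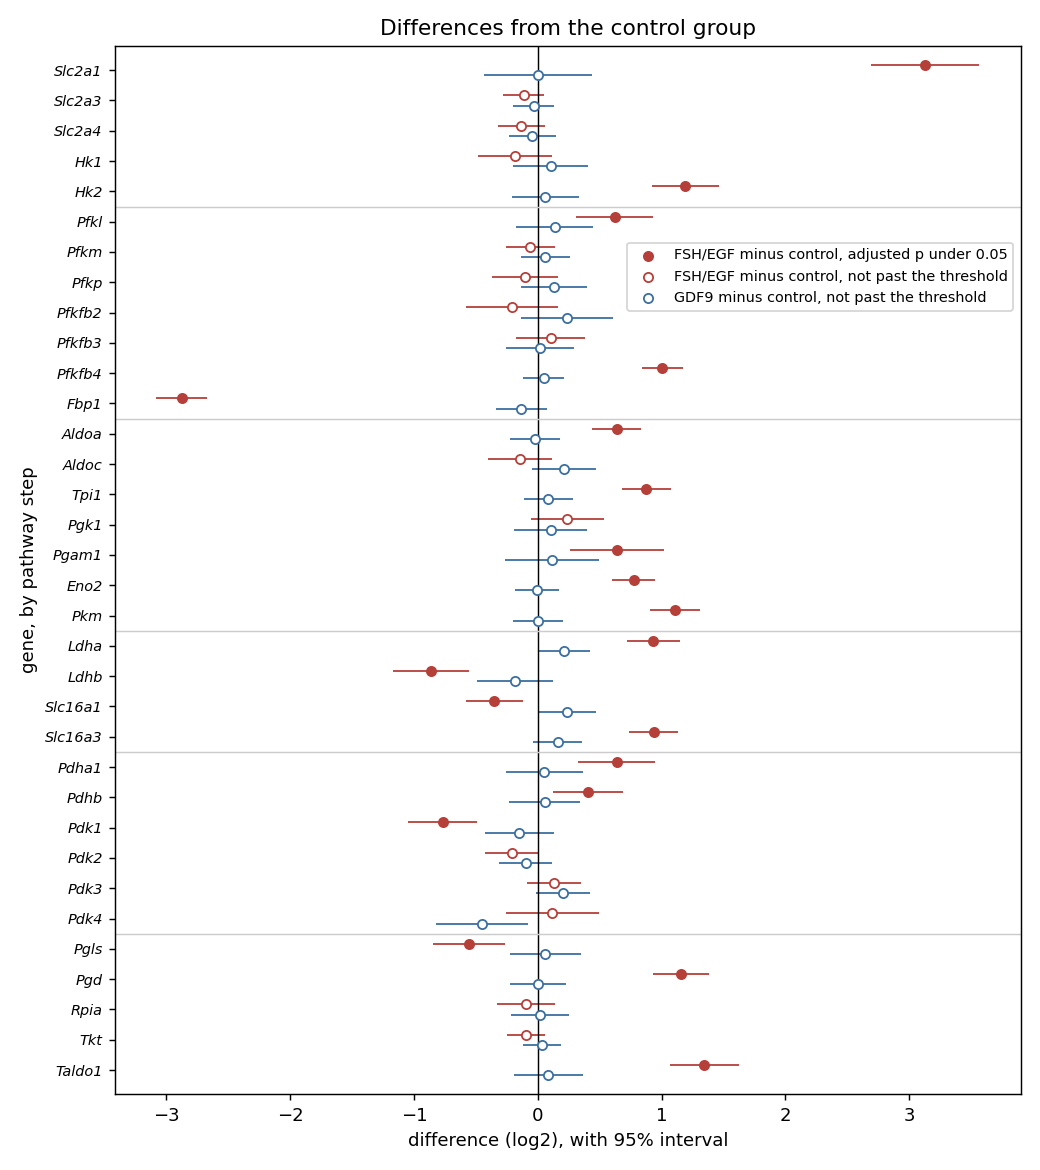
Points are log2 differences from control with 95% intervals for the 34 genes in pathway order, FSH/EGF in red (filled where the adjusted p was under 0.05) and GDF9 in blue (open, none under 0.05). The 15 filled points right of 0 and the 5 left of it are the genes that rose and fell with FSH/EGF, and every GDF9 interval lies between -0.82 and 0.61.

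All 4 genes of lactate handling passed with FSH/EGF, in opposite directions within each pair of related genes. Thus 50.0% rose and 50.0% fell, against 21.9% and 14.9% of all genes. The shares of all genes above the median gene in mean level were 37.8% and 17.1%. Lactate dehydrogenase is a tetramer of A and B subunits, of which A is the muscle type and B the heart type. Ldha was at 10.37, 10.64, 10.54 and 10.50 with FSH/EGF, 9.95, 9.75, 9.58 and 9.89 with GDF9 and 9.64, 9.61, 9.39 and 9.68 in control. Ldhb was at 6.58, 6.59, 6.80 and 6.67 with FSH/EGF, 7.37, 7.30, 7.23 and 7.47 with GDF9 and 7.37, 7.47, 7.24 and 8.03 in control. Every FSH/EGF array was above all others for Ldha and below all others for Ldhb. Against control Ldha rose by 0.93 ± 0.10, or 1.91-fold (limma, adjusted p = 1.18e-05), and the difference for Ldhb was -0.86 ± 0.14, or 1.82-fold lower (adjusted p = 0.000529). The highest Ldhb value was on control 4, the array with the raised oocyte markers, and without that array the difference was -0.70 (adjusted p = 0.000128). A further Ldhb probe set gave -0.91 ± 0.19 (adjusted p = 0.00319).

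Slc16a1 and Slc16a3 encode MCT1 and MCT4, which carry lactate and pyruvate across the cell membrane, and MCT4 is the exporter typical of glycolytic cells. Slc16a3 was at 7.59, 8.00, 7.79 and 7.89 with FSH/EGF, 7.08, 7.10, 6.93 and 7.07 with GDF9 and 6.98, 6.75, 6.88 and 6.91 in control. Each FSH/EGF array was higher than the other groups, and the difference from control was 0.94 ± 0.09 (limma, adjusted p = 6.4e-06). Slc16a1 was at 7.88, 7.82, 7.70 and 7.56 with FSH/EGF, 8.62, 8.27, 8.16 and 8.25 with GDF9 and 8.06, 8.13, 7.97 and 8.19 in control. Its FSH/EGF arrays were the lowest, with a gap to control under the spread within the groups, and the difference was -0.35 ± 0.11 (adjusted p = 0.0262). That call was lost in 7 of 24 other settings, among them equal array medians (-0.27, adjusted p = 0.121). It was also lost without control 2 (adjusted p = 0.06), without control 4 (0.0621), without FSH/EGF 3 (0.0654) and without FSH/EGF 4 (0.0776), at differences of -0.34 to -0.29.

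Pyruvate dehydrogenase turns pyruvate into acetyl-CoA, and its kinases switch it off by phosphorylating the subunit that Pdha1 encodes. Pdha1 was at 8.04, 7.92, 7.97 and 7.93 with FSH/EGF, 7.66, 7.06, 7.29 and 7.50 with GDF9 and 6.94, 7.44, 7.35 and 7.58 in control. Pdk1, a kinase also known as a hypoxia target, was at 5.62, 5.73, 5.78 and 5.66 with FSH/EGF, 6.35, 6.30, 5.98 and 6.64 with GDF9 and 6.23, 6.56, 6.42 and 6.65 in control. The FSH/EGF arrays were above all others for Pdha1 and below all others for Pdk1. Pdha1 rose by 0.64 ± 0.14 against control (limma, adjusted p = 0.00496), and the difference for Pdk1 was -0.77 ± 0.13 (adjusted p = 0.000633).

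Pdhb, which encodes the other subunit of the same enzyme, was at 7.58, 7.44, 7.19 and 7.19 with FSH/EGF, 7.26, 6.76, 7.13 and 6.84 with GDF9 and 6.75, 6.90, 7.01 and 7.11 in control. With FSH/EGF the arrays lay just above control and overlapped with GDF9. The difference of 0.41 ± 0.13 from control passed (limma, adjusted p = 0.0345), but the call was lost when any of 5 arrays was left out. The difference was then 0.33 to 0.43, with adjusted p of 0.0857, 0.0729, 0.0543, 0.105 and 0.0826, without control 1, control 2, control 3, FSH/EGF 1 and FSH/EGF 2 in turn. With the replicate number as a block the adjusted p was 0.0615, and after renewed quantile normalization the difference was 0.23 (adjusted p = 0.185). The kinases Pdk2, Pdk3 and Pdk4 did not pass against control, with differences of -0.21 ± 0.10, 0.13 ± 0.10 and 0.12 ± 0.17. After renewed quantile normalization Pdk2 differed by -0.30 (adjusted p = 0.046).

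In the pentose phosphate pathway 2 of 5 genes rose with FSH/EGF and 1 fell, where 21.9% of all genes rose and 14.9% fell. All 5 lay above the median gene in mean level, and of all genes above it 37.8% rose and 17.1% fell. Pgd, the phosphogluconate dehydrogenase that makes NADPH, was at 10.50, 10.49, 10.51 and 10.46 with FSH/EGF, 9.67, 9.30, 9.16 and 9.23 with GDF9 and 9.28, 9.52, 9.33 and 9.22 in control. Taldo1, the transaldolase that returns pentoses to glycolysis, was at 8.84, 8.65, 8.66 and 8.52 with FSH/EGF, 7.37, 7.32, 7.62 and 7.34 with GDF9 and 7.74, 7.17, 7.20 and 7.19 in control. Neither gene's FSH/EGF arrays reached down to the other groups. Pgd rose by 1.15 ± 0.10, or 2.23-fold (limma, adjusted p = 3.34e-06), and Taldo1 by 1.34 ± 0.13, or 2.54-fold (adjusted p = 5.42e-06).

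Pgls, the lactonase that acts just before Pgd, was at 7.42, 7.22, 7.56 and 7.41 with FSH/EGF, 7.97, 8.16, 7.89 and 8.07 with GDF9 and 8.39, 7.68, 7.88 and 7.90 in control. The FSH/EGF arrays were below all others, and the difference from control was -0.56 ± 0.13 (limma, adjusted p = 0.00723). Without control 1, the highest array, it was -0.42 (adjusted p = 0.00739). Rpia, ribose phosphate isomerase, differed by -0.09 ± 0.11 (adjusted p = 0.545). Tkt, transketolase, differed by -0.09 ± 0.07 (adjusted p = 0.342), and by -0.31 after renewed quantile normalization (adjusted p = 0.0045).

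The calls with FSH/EGF were repeated under 24 other settings, of which 12 left out 1 array each. Of the 20 genes that passed, 16 passed in every one of them, 12 higher and 4 lower. The exceptions were Pfkl, Pgam1, Slc16a1 and Pdhb.

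**Figure D4:**
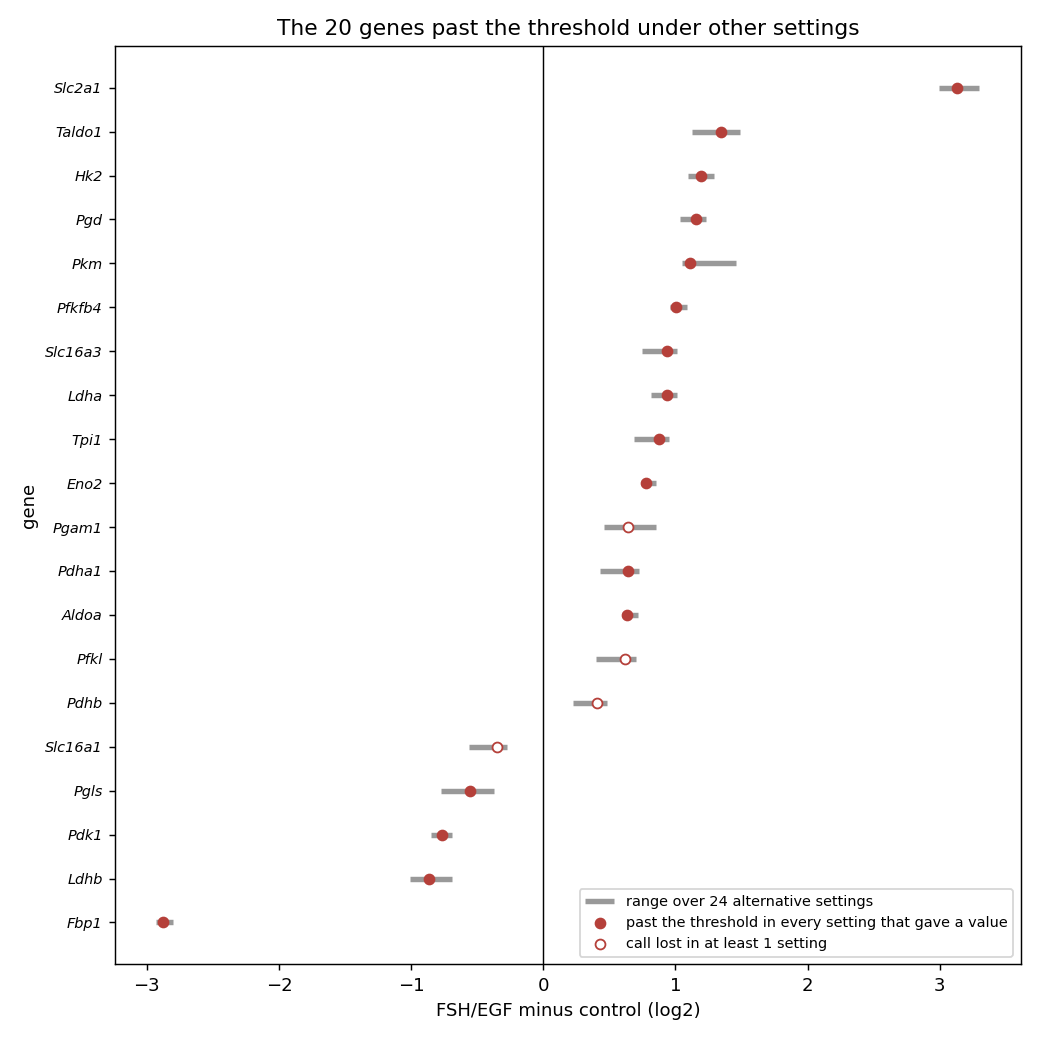
Points are the log2 differences between FSH/EGF and control of the 20 genes that passed, and grey bars the range over the 24 other settings. The 4 open points are Pgam1, Pfkl, Pdhb and Slc16a1, each of which missed the threshold in at least 1 setting, and no bar reaches 0.

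With GDF9, differences from control ran from -0.45 for Pdk4 to 0.24 for Slc16a1. None of the 34 genes passed, and of all 19938 genes 0.0% passed. The smallest adjusted p among the 34 was 0.971 (limma). At an unadjusted p under 0.05, 2 genes were below the limit, or 5.88%, as were 4.95% of all genes. No gene had GDF9 arrays apart from the control arrays, against 2.32% of all genes. The differences were positive for 25 genes and negative for 9, with a median of 0.05. Over all genes 8709 were positive and 11229 negative, with a median of -0.02. All 95% intervals lay between -0.82 and 0.61 on the log2 scale.

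The pair of genes with the smallest unadjusted p values under GDF9 were Pdk4 and Slc16a1. Pdk4, a kinase of pyruvate dehydrogenase that rises in fasting tissues, was at 6.26, 6.38, 6.45 and 6.63 with FSH/EGF, 5.92, 5.87, 5.69 and 5.97 with GDF9 and 5.89, 6.54, 6.03 and 6.79 in control. The GDF9 arrays lay at the low end of a wide control range, and the difference from control was -0.45 ± 0.17 (limma, unadjusted p = 0.0218, adjusted p = 0.971). Slc16a1 differed by 0.24 ± 0.11 (unadjusted p = 0.0441, adjusted p = 0.971) and Ldha by 0.21 ± 0.10 (unadjusted p = 0.0515).

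Between the treatments, 15 genes were higher and 5 lower with FSH/EGF than with GDF9, against 18.6% and 10.5% of all genes. After renewed quantile normalization 12 were higher and 7 lower. This comparison shares the FSH/EGF arrays with the one against control. Slc2a1 was 3.13 ± 0.20 higher than with GDF9 (limma, adjusted p = 1.59e-07) and Fbp1 differed by -2.74 ± 0.09 (adjusted p = 6.41e-10). Pgd was 1.15 ± 0.10, Taldo1 1.26 ± 0.13 and Hk2 1.13 ± 0.12 higher. Slc16a1 differed by -0.59 ± 0.11 (adjusted p = 0.00122), against -0.35 from control. Pdk4 was 0.57 ± 0.17 higher with FSH/EGF than with GDF9 (adjusted p = 0.0303), with no overlap of the arrays, while against control it did not pass. Pdhb differed by 0.35 ± 0.13 and did not pass here (adjusted p = 0.0772).

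The calls of Pfkl, Pgam1 and Pdk4 between the treatments were close to the threshold. Pfkl differed by 0.49 ± 0.14 (limma, adjusted p = 0.0275) and lost its call without any of GDF9 arrays 2, 3 and 4 or FSH/EGF arrays 1, 2 and 3, at adjusted p of 0.0565 to 0.0874. Without GDF9 1, the array with the high value, it was 0.67 (adjusted p = 4.07e-05). Pgam1 differed by 0.53 ± 0.17 (adjusted p = 0.0467) and lost its call without any of GDF9 arrays 2, 3 and 4, control arrays 2 and 3 or the 4 FSH/EGF arrays, at adjusted p of 0.0539 to 0.114. Pdk4 lost its call without any of GDF9 arrays 2 and 3 or FSH/EGF arrays 2, 3 and 4, at adjusted p of 0.0555 to 0.0881. Pdhb passed without GDF9 1 (0.44, adjusted p = 0.0288). Pfkfb2 passed without control 1 (-0.44, adjusted p = 0.0111), and Aldoc, at -0.35 ± 0.12 (adjusted p = 0.0522), passed without control 1 (0.0461), control 4 (0.0439), GDF9 4 (0.00875) or FSH/EGF 1 (0.0467).

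A further list of 50 genes holds other transporters and enzymes of the same pathways and of the branches into glycogen, glycerol phosphate and glucose synthesis, and 44 of them were measured. With FSH/EGF 13 of the 44 rose, or 29.5%, and 7 fell, or 15.9%, against the same 21.9% and 14.9% of all genes. The largest change was in Pgm2, a phosphoglucomutase that links glycolysis to glycogen and sugar nucleotides. It lay at 8.93 to 9.33 with FSH/EGF, 6.83 to 7.21 with GDF9 and 6.52 to 6.90 in control, and it rose by 2.37 ± 0.12 against control (limma, adjusted p = 1.69e-08). Gpd2, the mitochondrial enzyme of the glycerol phosphate shuttle, rose by 1.20 ± 0.07 (adjusted p = 8.29e-08). Ugp2, which makes the UDP-glucose used for glycogen and hyaluronan, rose by 0.85 ± 0.10 (adjusted p = 2.4e-05). Pdhx, a structural subunit of the pyruvate dehydrogenase complex, rose by 0.84 ± 0.10, Bpgm, bisphosphoglycerate mutase, by 0.69 ± 0.14 and H6pd, a hexose phosphate dehydrogenase of the endoplasmic reticulum, by 0.65 ± 0.12.

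Pck2, the mitochondrial phosphoenolpyruvate carboxykinase, a step of glucose synthesis like Fbp1, lay at 6.84 to 6.96 with FSH/EGF, 7.91 to 8.01 with GDF9 and 7.89 to 8.09 in control. Its arrays with FSH/EGF were below all others, and the difference from control was -1.07 ± 0.06 (limma, adjusted p = 8.84e-08). Pygb, a glycogen phosphorylase, differed by -1.04 ± 0.11 (adjusted p = 1.88e-05). With GDF9 none of the 44 genes passed. The smallest unadjusted p values in that limma comparison were 0.0211 for Ugp2 and 0.0622 for Pgm2, each at a difference of 0.25 and an adjusted p of 0.971. Between the treatments 11 of the 44 were higher with FSH/EGF, or 25.0%, and 4 lower, or 9.09%, against 18.6% and 10.5% of all genes. The smallest p values there were those of Pgm2, at a difference of 2.12 ± 0.12, and Pck2, at -1.06 ± 0.06.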

How the data were processed

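Cumulus cell RNA from 12 arrays, 4 per culture group, was analysed from the deposited series table. The authors normalized its log2 values before deposit. Per the submitters' processing notes, GCOS, RMA and Partek were used, with no version or role given. The genome build is not given in the sources used here. Per the labels' protocols, 8 biological replicates per condition were extracted independently and pooled in pairs, so p-values measure the spread between pools.

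Of 35399 rows, 21789 carried 1 gene symbol, 1621 several and 11989 were not listed in the platform annotation. All rows were tested with limma 3.58.1 in R 4.3.3 (lmFit and eBayes, 1 mean per group over all 12 arrays), and p-values of each of 3 comparisons were adjusted by Benjamini-Hochberg over every row, with a threshold of 0.05. On simulated data with 200 changed rows of 35399 in the comparison of FSH/EGF with control, 33.5% of log2 changes of 0.5, 92% of changes of 1 and 99% of changes of 2 were recovered. In the data far more rows passed, 5856 higher and 4413 lower, so these shares do not give the recovery in the data. No pair of arrays was identical, and correlations within groups were 0.971 to 0.995. Promoters came from RefSeq (GRCm38.p6).

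All 38 members were named by rule. Members past the threshold with FSH/EGF have every array printed, except Hk2 with GDF9, given as a range. Of the other pathway genes the 8 largest changes with FSH/EGF, and the 2 smallest p values in each other comparison, were named. Members and lists were chosen with earlier results of these data known. Alternatives were variance models, groups fitted, array weights, a filter on the 40% dimmest rows, normalization, probe set choice, a replicate block and arrays left out. Only the annotated probe set and the removal of 3 arrays together were added after seeing the data.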

Additional observations from a re-analysis of the deposited data

Results flagged for a closer look

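In 4 of the 102 sets of 4 arrays (34 genes in 3 groups), 1 array lay apart from the other 3 by more, relative to the range, than the 95% critical value of Dixon's test. Chance alone flags about 1 set in 20, or 5%, so 4 of 102 is no more than that. Pfkl was at 8.08 on GDF9 array 1, with the other GDF9 arrays at 7.29 to 7.39. Fbp1 was at 4.41 on FSH/EGF array 2, with the other FSH/EGF arrays at 4.29 to 4.31. Tkt was at 9.24 on control 1, with the other control arrays at 9.12 to 9.13. Taldo1 was at 7.74 on control 1, with the other control arrays at 7.17 to 7.20, and without control 1 the difference between FSH/EGF and control was 1.48 (limma, adjusted p = 2.96e-07), against 1.34 with it.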

How the results depend on the processing

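Over 24 alternatives, the number of the 34 genes that passed with FSH/EGF against control stayed between 17 and 21, against 20 in the analysis reported. With each array left out in turn, 14 to 15 rose and 4 to 6 fell, and after renewed quantile normalization 13 rose and 8 fell, against 15 and 5. Between FSH/EGF and GDF9 the number was 17 to 23, and between GDF9 and control it was 0 under every alternative. Over all rows, the count between GDF9 and control was 0 to 1 with each array left out, and 1 row passed without GDF9 array 3. Of the other pathway genes, 20 passed with FSH/EGF and 13 passed without control 1, control 4 and FSH/EGF 3, and the cause was not tested. Hk1 turned direction with the probe set. With FSH/EGF against control it was 0.69 as the mean of its probe sets and 1.57 with the annotated set, and against GDF9 it was 0.64 and 1.58. Over all rows, 5856 rose and 4413 fell with FSH/EGF, and with equal array medians 6637 rose and 2588 fell, so that rises made up 71.9% of the calls in place of 57.0%. Whether the replicate numbers pair the arrays was not settled. Deviations of same-numbered arrays correlated at -0.39 to 0.22, with 7 of 12 pairs over 0.1, and those of differently numbered arrays at -0.35 to 0.39. With the replicate numbers as a block, 14 genes rose and 5 fell with FSH/EGF, and Pdhb was lost against control (0.41, limma, adjusted p = 0.0615). Pgam1 was lost against GDF9 (0.53, adjusted p = 0.0623) and no other call of a member changed. Signal over background was not analysed here, which limits what can be said of dim genes such as Fbp1 with FSH/EGF, and Slc2a3 was not tested without the dimmest rows.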
